A study of Drosophila melanogaster with 12 samples.

Results

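Odorant-binding proteins and chemoreceptors are the molecules with which flies smell and taste, and 159 genes of these families were followed in whole Drosophila melanogaster during the first 12 hours after yeast was returned to the diet. Members were taken by gene symbol from the array's annotation. They comprised 35 odorant-binding protein genes (Obp), 53 odorant receptor genes (Or, counting the co-receptor Orco), 28 gustatory receptor genes (Gr) and 43 ionotropic receptor genes (Ir), out of 10844 genes with 1 symbol in the table. Where a gene had several probe sets, the one with the highest mean was kept, which reduced 164 probe sets to 159. The gene table used for names lists 238 genes of these families, and members made up 35 of its 51 Obp, 53 of 61 Or, 28 of 60 Gr and 43 of 66 Ir genes. A further 5 probe sets that name a gene of these families together with another gene were left out. The study used 12 Affymetrix DrosGenome1 arrays, 1 for each hour from 1 to 12, all of the group returned to yeast. Early in the third larval instar these flies had been moved from standard food to food lacking yeast. They stayed on it until 4 days after emergence and then received standard food with yeast again. Neither strain, genotype nor sex is given for any array, and how many flies were pooled is not stated. Arrays of flies that stayed without yeast, or of the starting state, were not analysed here, and hour cannot be told apart from time of day, age or order of handling. With 1 array an hour, p-values measure only how far arrays scatter about the fitted course, and that scatter may be technical.

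Odorant-binding proteins are small secreted proteins that are abundant in the fluid around the sensory neurons of antenna and mouthparts, where they bind odorants and pheromones. The family is also used outside the senses, and some members are secreted by the male reproductive tract or by other tissues into body fluids. Odorant receptors work as complexes with the shared subunit Orco, gustatory receptors detect sugars, bitter compounds and carbon dioxide, and ionotropic receptors, relatives of glutamate receptors, detect acids, amines, humidity and temperature together with a few shared subunits. Each receptor is typically made in a small set of neurons, which make up a very small part of the RNA of a whole fly. In whole-animal RNA, fewer cells of a type and less RNA per cell cannot be told apart.

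Most receptor genes were not above the brightest negative control on every array. The floor used here, 57.2 in intensity units, was the table's 20th percentile. The mean over the arrays was above it for 97 of the 159 genes, namely 28 of 35 Obp genes, 31 of 53 Or genes, 13 of 28 Gr genes and 25 of 43 Ir genes. On all 12 arrays, 85 genes were above the floor, and 44 were above it on none. Negative control probe sets without a fly target gave a second yardstick, since the brightest of these 19 read between 98.1 at hour 7 and 135.2 at hour 12. Their median was lower, from 43.1 at hour 6 to 53.8 at hour 9, and 69 of 124 receptor genes had a mean above the floor. Above the brightest negative control on every array were 12 of 35 Obp genes and 16 of 124 receptor genes, the latter 9 Or, 4 Gr and 3 Ir. Different probe sets bind with different strength, so these counts describe detection and not which gene has more RNA.

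**Figure D1:**
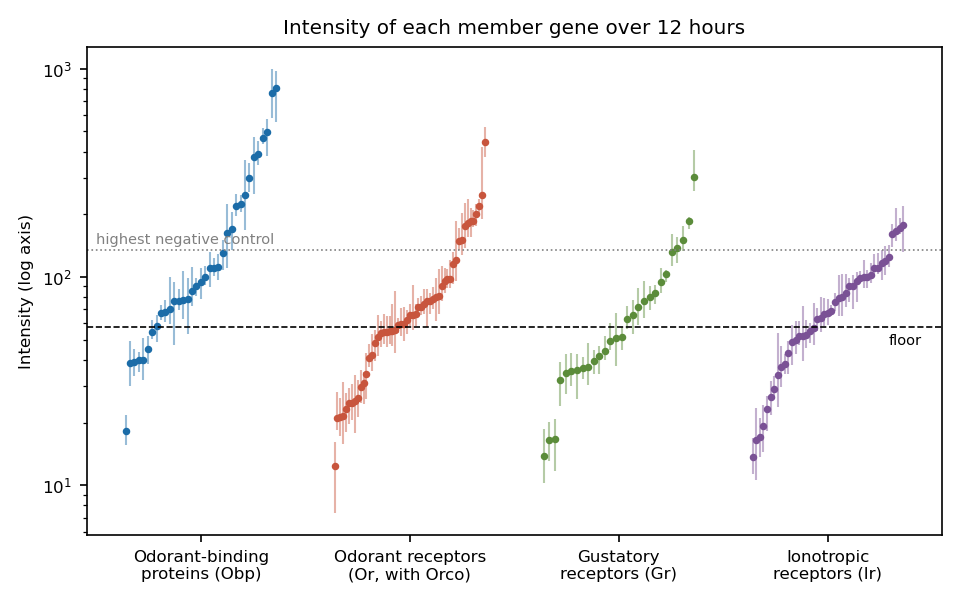
Intensity of each of the 159 member genes (log axis) by family; points are means over 12 arrays and lines run from the lowest to the highest array. The dashed line is the floor of 57.2 and the dotted line the highest negative control reading of 135.2; the Or, Gr and Ir families extend mostly below the dotted line.

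Their number, 12, limits the precision of the arrays. Median intensity of fly probe sets lay between 113.7 at hour 2 and 120.3 at hour 9. A seminal fluid transcript, Acp95EF of the accessory gland, was above the floor at hours 2, 3, 5, 9 and 10, with 269.5 to 552.0, and read 38.0 to 44.0 on the other 7 arrays. Of 10 tested genes of the female list, Yp1, Yp2 and Yp3, which encode yolk proteins, rose, where 8.44% of all tested probe sets did. The other 7 did not pass. Of 6 tested neuronal genes 4 fell, and of 7 photoreceptor genes 6 fell, where 4.97% of all tested probe sets did. The summed intensity of the neuronal list was 1459 at hour 1 and 861 at hour 12, and that of the photoreceptor list 9707 and 5829. The actin controls, a measure of RNA quality, read higher at the 3′ than at the 5′ end by a log2 difference of 1.13 at hour 1 and 0.69 at hour 12.

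Over the 12 hours 3 odorant-binding protein genes rose, 1 fell, and none of the receptor genes passed the test. Obp99c, Obp44a and Obp99a rose, by fitted log2 changes between hour 1 and hour 12 of 0.53 ± 0.15, 0.54 ± 0.17 and 0.31 ± 0.09 (SE, n = 12 arrays). Obp56g, known as a seminal fluid protein of the ejaculatory bulb, fell by 0.72 ± 0.20 on the log2 scale. The tissue that gave its signal in these flies was not tested. Of 29 tested Obp genes 25 did not pass, and of 77 tested receptor genes 77 did not pass. Genes were tested if above the floor on at least 3 arrays, which left out 53 of the 159 members, 47 of them receptors. The test was a straight line over hours fitted with limma to all 11586 tested probe sets, and adjusted over all of them. Of all tested probe sets 1554 passed, or 13.4% (8.44% higher and 4.97% lower), against 4 of 106 members, or 3.77%, and 13.8% of tested Obp genes. The share among Obp genes was thus near the background. Counted at an unadjusted p under 0.05 by the same limma fit, 8 Obp and 3 receptor genes passed, while 24.9% of all tested probe sets did. The median fitted change was 0.03 for Obp genes, -0.01 for receptor genes and 0.01 for all tested probe sets. The number of members past the threshold depended on single arrays. It was 0 without hour 11, 1 without hour 2, 3 or 12, 2 without hour 1, 4, 6, 8 or 10, 3 without hour 5 or 9 and 4 without hour 7. Over the whole table these fits called between 943 probe sets, without hour 11, and 2002, without hour 10.

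**Figure D2:**
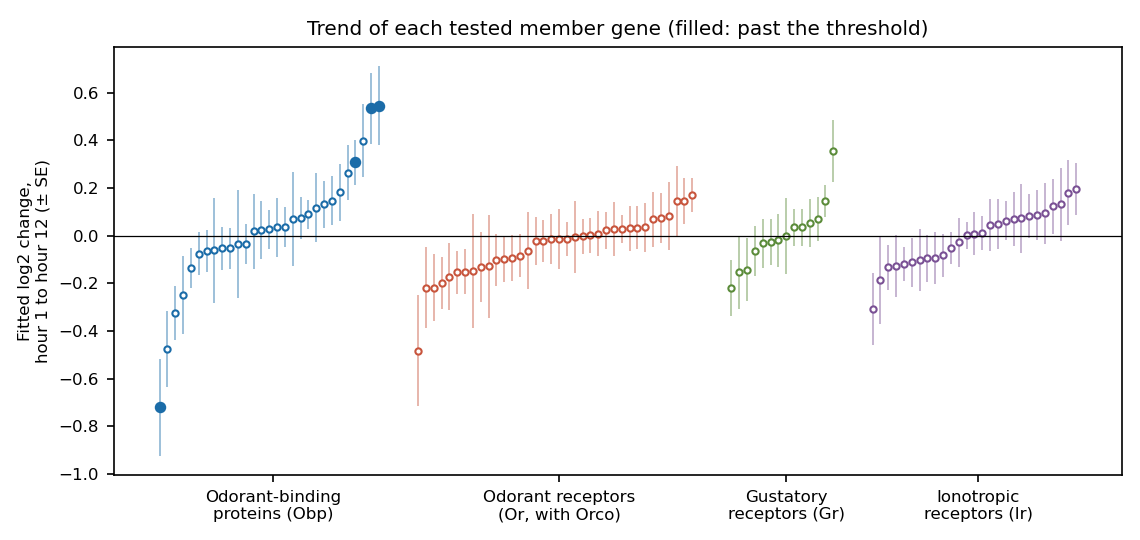
Fitted log2 change from hour 1 to hour 12 (vertical axis, bars are SE) for each of the 106 tested member genes, sorted within family. Filled points passed the threshold; they are Obp56g at -0.72 and Obp99a, Obp99c and Obp44a at 0.31, 0.53 and 0.54, and all receptor points are open.

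Among the genes that rose, Obp99c had the smallest p. It read 764.3, 555.9, 688.3, 707.9 and 729.9 at hours 1 to 5, and 892.0, 868.1, 896.2, 974.3, 739.0, 967.0 and 911.9 at hours 6 to 12. With the hours split after the values were seen, all of the later 7 lay above all of the first 5 apart from hour 10. Hour 10 lay below hour 1. The limma adjusted p was 0.0284, and it did not pass without hour 2 (0.0907), 3 (0.0556), 11 (0.0814) or 12 (0.0578). In those fits the change ranged from 0.40 to 0.58. Without the 5 arrays that held Acp95EF it was 0.37 (limma adjusted p = 0.0866).

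Obp44a encodes a lipid-binding member of the family that is secreted in the nervous system by glia. Its intensity was 250.6 at hour 1, 393.4 at hour 2 and 303.4 at hour 4, was highest at hour 9 with 472.0 and read 398.4 at hour 12, with a median of 384.7. Every hour from 8 to 12 was above every hour from 1 to 7, a split set after the values were seen. The margin was small, with hour 12 at 398.4 the lowest later value and hour 2 at 393.4 the highest earlier one. The limma adjusted p was 0.0431. Without hour 1, its lowest array, the change was 0.37 (limma adjusted p = 0.207), and it also did not pass without hour 4 (0.0728), 5 (0.0535), 6 (0.0536), 8 (0.0609), 9 (0.0666), 10 (0.0635), 11 (0.106) or 12 (0.0517). Obp44a did pass without the 5 arrays that held Acp95EF. With the mean of the male accessory gland genes as covariate its change was 0.60 ± 0.12 (limma adjusted p = 0.00611). The neuronal genes elav, nSyb and Rdl changed by -0.90, -0.84 and -0.93 over the same hours, and ChAT by -0.42. Changes of brp and para were -0.21 and -0.15 and did not pass. The part of nervous tissue in the values of Obp44a was not tested.

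Obp99a had a smaller and steadier course. Its intensity lay between 257.2 at hour 2 and 273.3 at hour 1 over hours 1 to 4. Over hours 5 to 12 it lay between 293.7 at hour 7 and 352.5 at hour 11. These stretches, set after the values were seen, did not overlap. The fit of hours 5 to 8 against hours 1 to 4 did not pass (limma adjusted p = 0.166). The limma adjusted p for the line over hours was 0.0452, close to the threshold of 0.05. It did not pass without hour 1 (0.0855), 2 (0.129), 3 (0.0887), 4 (0.0757), 6 (0.0570), 7 (0.0599), 8 (0.0578), 9 (0.0666) or 11 (0.148), at changes between 0.25 and 0.33. Obp99a, Obp99c, Obp99d and Obp99b lie near each other in this order, with 5, 2 and 1 other genes between them in the gene table. Fitted changes were above 0 for all 4, and differences between their courses were not tested. Obp99b, which is expressed in the fat body and is higher in males, read 108.2 and 107.5 at hours 1 and 2, between 120.4 and 150.4 at hours 3 to 11, and 123.9 at hour 12. Its fitted change was 0.26 ± 0.11 (limma adjusted p = 0.166). It was highest in the middle hours, and the curvature term had an unadjusted limma p of 0.00337 (adjusted over all probe sets 0.389). Obp99d ranged from 72.9 to 111.7, highest at hour 8, with a change of 0.12 ± 0.15 (limma adjusted p = 0.714).

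**Figure D3:**
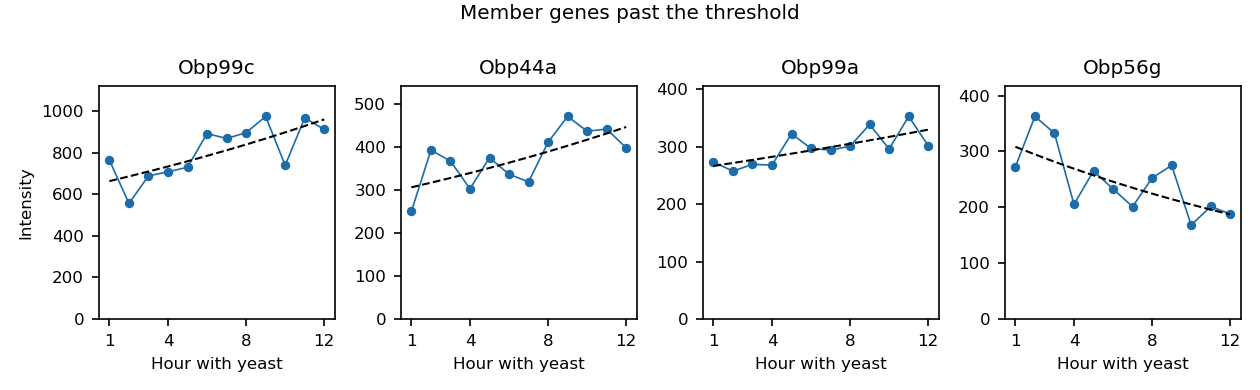
Intensity (vertical axis, from 0) of the 4 member genes past the threshold at each hour after the return of yeast; the dashed line is the straight line fitted to log2 intensity. Obp99c, Obp44a and Obp99a end above where they began, while Obp56g is highest at hour 2 with 362.7 and lowest at hour 10 with 168.1.

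Obp56g was the member with the largest fitted change. It read 272.4, 362.7 and 332.5 at hours 1 to 3, between 201.2 and 275.1 at hours 4 to 9, and 168.1, 201.5 and 188.1 at hours 10 to 12. These stretches were set after the values were seen. The first 3 hours overlapped the middle ones only through hour 9, at 275.1, and hour 11 overlapped them by a small margin at hour 7. The limma adjusted p was 0.0316. The call was lost without hour 2 (0.105), 3 (0.0685), 10 (0.0513), 11 (0.0685) or 12 (0.0877). Since Obp56g is known from the male reproductive tract, the male transcripts were set beside it. On the 5 arrays with Acp95EF above the floor, hours 2, 3, 5, 9 and 10, it read 362.7, 332.5, 265.1, 275.1 and 168.1. It lay between 188.1 and 272.4 on the other 7 arrays, so that the ranges overlapped. Obp56g was above the brightest negative control on all 12 arrays, those without Acp95EF above the floor among them. Of the male accessory gland list, 6 of 13 genes on the array were tested, with a summed intensity of 777 to 1235 on those arrays and 300 to 360 on the others. The tested genes of the ejaculatory bulb and duct, EbpII and Ebp, summed to 593, 526, 700.3, 271 and 172 at hours 2, 3, 5, 9 and 10, and to 54.5 to 65.3 on the others. EbpII and Ebp were each below the floor on the arrays without Acp95EF above it, where Obp56g lay between 188.1 and 272.4. Among the 5 arrays with Acp95EF above the floor the sum of EbpII and Ebp was lowest at hour 10, as Obp56g was. It was highest at hour 5, where Obp56g read 265.1, below hours 2, 3 and 9. Fitted changes were -1.48 ± 0.95 for EbpII and -1.06 ± 0.60 for Ebp (limma adjusted p = 0.388 and 0.31). Of 9 tested testis genes 1 fell, bol, and 8 did not pass. bol was highest at hour 1 with 782.8 and lowest at hour 12 with 456.5, both without Acp95EF above the floor. Without the 5 arrays Obp56g had a change of -0.38 ± 0.16 (limma adjusted p = 0.192). With the mean of the accessory gland genes as covariate it kept its call, but no covariate from the bulb genes was fitted. The part of male tissue in the change was not tested further.

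Other Obp genes known from seminal fluid were nearly flat or dim. Obp8a ranged from 91.6 at hour 8 to 112.5 at hour 9, with a median of 100.7. Obp56e was lowest at hour 10 with 53.3 and highest at hour 12 with 99.1, and was not above the brightest negative control on any array (0 of 12). For both genes the values on the arrays with Acp95EF overlapped those on the other arrays. The neighbours of Obp56g were followed too. Obp56d, found in antenna and mouthparts, ranged from 382.4 at hour 10 to 571.2 at hour 8, with a fitted change of 0.02 ± 0.16 (limma adjusted p = 0.97). Obp56a was above the floor on all arrays and above the brightest negative control on 0. It was lowest at hour 2 with 59.6 and highest at hour 10 with 100.3, followed by 77.5 at hour 8. Its fitted change was 0.40 ± 0.15 (limma adjusted p = 0.113). That change was 0.13 without the 5 arrays that held Acp95EF and 0.21 with the actin difference as covariate. Obp56h exceeded the floor on 3 arrays.

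The classical binding proteins of the antenna and mouthparts did not pass the test. Obp83b, an antennal protein of the pheromone-sensing sensilla, ranged from 346.3 at hour 4 to 448.2 at hour 12 (change 0.15 ± 0.10, limma adjusted p = 0.442). Obp28a, among the abundant antennal proteins, stayed between 197.0 at hour 8 and 251.3 at hour 9. Obp69a, linked to responses to a male pheromone, was highest at hour 3 with 94.3, was 59.4 at hour 7 and lowest at hour 9 with 47.2. Its fitted change was -0.47 ± 0.16 (limma adjusted p = 0.0657), and without hour 7 it passed (0.0459). Obp84a was high on a pair of arrays, hour 3 with 106.9 and hour 9 with 106.6, while the other 10 lay between 62.7 and 84.1. Obp59a, used in humidity sensing, ranged from 78.8 at hour 2 to 110.5 at hour 12, and Obp19a from 101.4 to 123.9. None of these last 3 exceeded the brightest negative control on all arrays, and Obp69a exceeded it on 0 arrays. The cluster Obp19a, Obp19b, Obp19c and Obp19d lies with 0 other genes between neighbours. Obp19d ranged from 577.8 at hour 10 to 994.1 at hour 2, with a change of -0.25 ± 0.16 (limma adjusted p = 0.402), which turned to 0.024 without the 5 arrays that held Acp95EF, while Obp19b kept between 435.4 and 521.6 (change -0.13 ± 0.08, limma adjusted p = 0.375). Obp18a read 204.4 at hour 1 and 134.6 at hour 10, with a change of -0.33 ± 0.11 (limma adjusted p = 0.0748, and 0.0489 without hour 9).

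**Figure D4:**
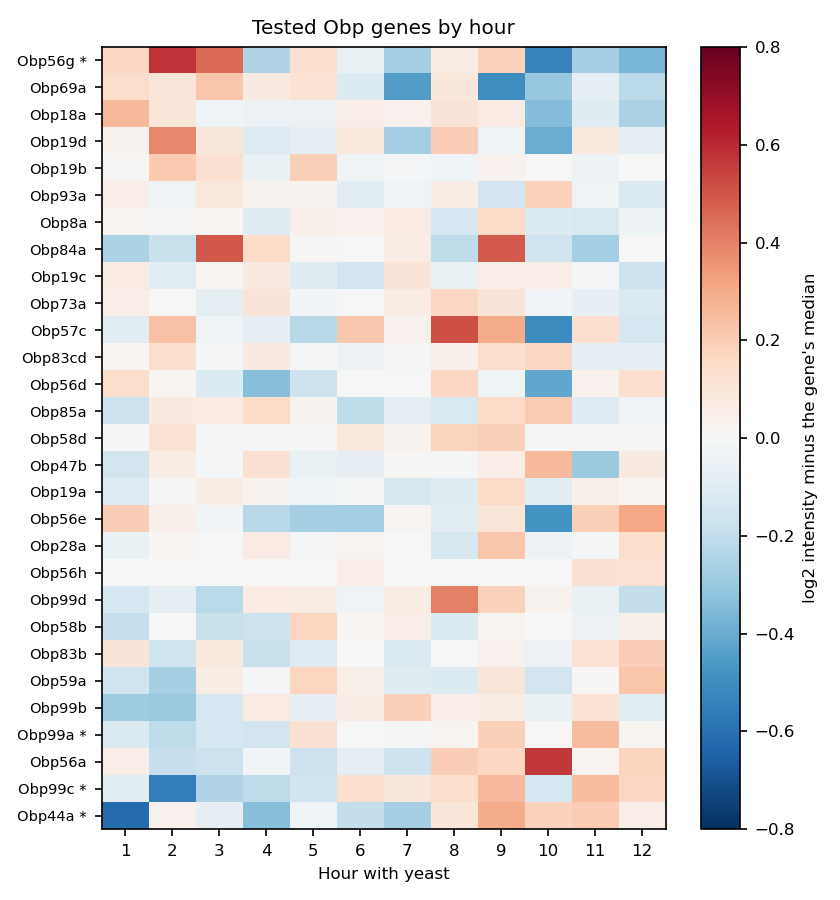
Log2 intensity of the 29 tested Obp genes at each hour, floored at 57.2, minus the gene's own median (colour; red above, blue below), sorted by fitted change with genes past the threshold starred. Obp56g is reddest at hours 2 and 3, Obp44a bluest at hour 1, and 6 genes are at their lowest at hour 10.

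Several Obp genes were lowest at hour 10, an array with Acp95EF above the floor. Of the 29 tested, 6 were lowest at hour 10, or 20.7%, compared with 8.17% of all tested probe sets and 1 of 77 receptor genes. These 6 were Obp18a, Obp19d, Obp56d, Obp56e, Obp56g and Obp57c. Obp57c, chosen for its values, read 223.6 at hour 8 and 110.0 at hour 10. At hour 2, also with Acp95EF above the floor, 5 were lowest (17.2%), near the 14.6% of all tested probe sets. They were Obp56a, Obp59a, Obp99a, Obp99b and Obp99c. Of tested receptor genes, 19.5% were lowest at hour 11 and 20.8% at hour 12, compared with 9.44% and 13.1% of all tested probe sets. These shares describe single arrays and were not tested.

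The variation of receptor genes from hour to hour was near that of all probe sets. Of the 77 tested, 16 were above the brightest negative control on all arrays, and values under the floor were set to it, which lowers the spread of dim genes. The median standard deviation over hours, on the floored log2 scale, was 0.11 for tested receptor genes, 0.14 for tested Obp genes and 0.13 for all tested probe sets. The highest array was at least 1.5 times the lowest for 16 of 77 receptor genes (20.8%), 11 of 29 Obp genes (37.9%) and 28.3% of all tested probe sets. Orco, without which most odorant receptors do not function, was above the brightest negative control on all 12 arrays. It ranged from 156.1 at hour 5 to 238.0 at hour 9, with a median of 179.5 and a change of 0.08 ± 0.14 (limma adjusted p = 0.814). Or59b, a receptor for short acetate esters, ranged from 375.2 at hour 11 to 527.5 at hour 9 (change -0.01 ± 0.12, limma adjusted p = 0.97). Or22c ranged from 173.8 to 209.2 (change 0.17 ± 0.07, limma adjusted p = 0.138).

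Or22b had the widest range of all tested members, and hour 3 set its upper end. Its intensity reached 420.6 at hour 3 and 314.4 at hour 9, stayed between 190.7 and 249.5 on the other 10 arrays, and the highest over lowest was 2.21. Or22b and its neighbour Or22a, both receptors of fruit ester neurons, are similar in sequence, so that a probe set may read both. The Or22a probe set ranged from 52.0 to 71.2. Or22b had a change of -0.48 ± 0.23 (limma adjusted p = 0.219), and of -0.27 without hour 3 (0.379). Without the 5 arrays that held Acp95EF, hours 3 and 9 among them, the change was -0.41 and passed (limma adjusted p = 0.0259). Or46a also passed in that fit, at -0.34 (limma adjusted p = 0.0382), and had -0.22 over all arrays (0.497). Its intensity was also highest at hour 3, with 201.8, followed by 190.0 at hour 9, and the other 10 arrays lay between 127.4 and 158.6. The other Or46a probe set, left out by its lower mean, had a change of -0.20. Other receptors that were high on 1 or a few arrays were Or24a, at 85.6 at hour 3 and at most 64.2 elsewhere, Or35a, at 184.8 at hour 5 and 157.1 at hour 3 with a median of 115.5, and Or49b, at 210.1 to 225.6 at hours 3, 4, 9 and 10 and at most 177.6 elsewhere. Or22b, Or46a, Or24a, Or35a and Or49b were chosen after their values were seen. Of all tested members 2 had a highest array at least 1.3 times the next, or 1.89%, compared with 2.88% of all tested probe sets.

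Several gustatory receptors of sugar and carbon dioxide neurons read close to the floor. Gr5a, a trehalose receptor, ranged from 69.3 to 90.7, Gr61a, a sugar receptor, from 74.2 to 91.2, and Gr64f, a sugar co-receptor, from 63.8 at hour 4 to 95.5 at hour 1. Gr21a and Gr63a, which together detect carbon dioxide, ranged from 58.7 to 88.1 and from 56.3 to 72.9. Each of these 5 genes was above the brightest negative control on 0 arrays. Gr43a, which senses fructose in the brain as well as in taste organs, was steadier, between 94.9 at hour 3 and 108.3 at hour 10 (change 0.15 ± 0.07, limma adjusted p = 0.187). The bitter co-receptors Gr66a and Gr33a were not tested, since Gr66a was above the floor on 0 arrays and Gr33a on 1. Gr68a, linked to pheromone taste in males, and Gr57a were above the brightest negative control on all arrays. Gr68a was highest at hour 9 with 407.5, followed by hour 2 with 348.8, and the others lay between 259.8 and 314.6, with a change of -0.00 ± 0.16. Gr57a ranged from 112.5 at hour 1 to 161.3 at hour 12, with a change of 0.36 ± 0.13, the highest fitted value among receptors (limma adjusted p = 0.0897). It passed with the male accessory gland genes as covariate, at 0.39 (limma adjusted p = 0.0317).

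Ionotropic receptors and their shared subunits also did not pass. The co-receptor Ir25a ranged from 58.0 to 79.5 and Ir76b, above the floor on 4 arrays, from 48.4 to 60.1. Ir8a, the co-receptor of acid-sensing neurons, was above the brightest negative control on every array with its brighter probe set, from 160.1 at hour 3 to 191.9 at hour 8. Its second probe set ranged from 89.6 at hour 11 to 123.9 at hour 9, so the 2 probe sets were highest at different hours. Further members of known role were chosen after their values were seen. Ir84a, a food-odour receptor linked to male courtship, lay between 131.2 at hour 12 and 218.8 at hour 8, with the lowest fitted change among Ir genes, -0.31 ± 0.15 (limma adjusted p = 0.227). The acid receptors Ir75a and Ir64a ranged from 75.8 to 99.2 and from 69.0 to 83.8, and Ir40a, used in humidity sensing, from 70.4 at hour 1 to 102.7 at hour 12. Ir7g had the narrowest range of all tested members, from 94.5 to 107.2. The pheromone receptors Or67d and Or47b ranged from 49.5 to 71.8 and from 134.9 to 172.5. Or47b was above the brightest negative control on all 12 arrays and Or67d on 0. The fitted changes of tested Ir genes ran from -0.31 to 0.20.

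The intensity of receptor probe sets was highest at hour 9 more often than at any other hour. This held for 31 of 77 tested receptor genes (40.3%), for 6 of 29 tested Obp genes (20.7%) and for 21.2% of all tested probe sets. Hour 9 was also the array with the highest median intensity, and the median of the negative controls there was 53.8, compared with 43.1 to 48.3 on the other arrays. After quantile normalization, which gives all arrays 1 common distribution, 25 receptor genes (32.5%) and 10.5% of all tested probe sets were highest at hour 9. Among probe sets with a mean under 114.5, which is 2 times the floor, the shares on deposited values were 34.0% of 53 receptor genes and 17.9% of all 4524. After quantile normalization these shares were 30.2% and 10.9%. Of the 19 negative control probe sets, 26.3% were highest at hour 9 on deposited values and 10.5% after quantile normalization. Orco, Or59b and Gr68a were among the genes highest at this hour. Hour 9 was also among the arrays with Acp95EF above the floor, which were hours 2, 3, 5, 9 and 10. At hours 2, 3, 5 and 10, 6.49%, 6.49%, 7.79% and 11.7% of tested receptor genes were highest on deposited values. For all tested probe sets these shares were 6.42%, 5.80%, 2.38% and 9.81%. The parts of the array's overall brightness and of male tissue in this pattern were not tested further.

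**Figure D5:**
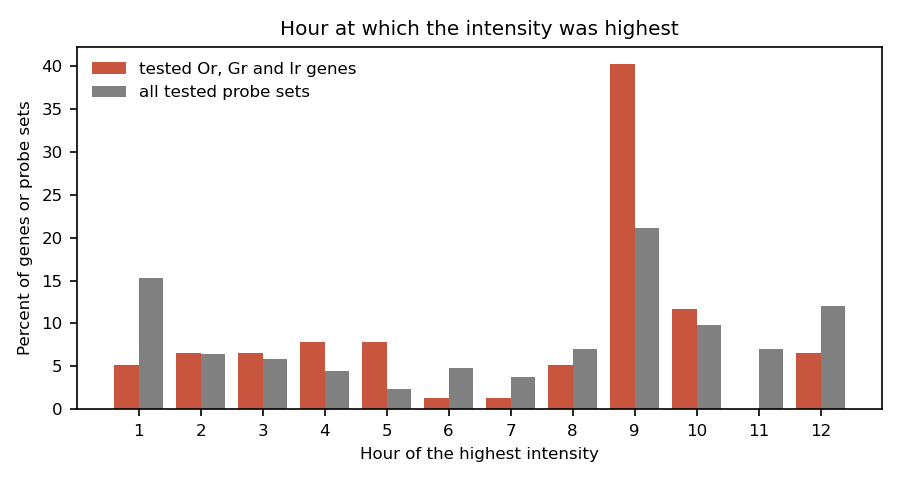
Percent of the 77 tested receptor genes (red) and of all 11586 tested probe sets (grey) whose intensity was highest at each hour. At hour 9 the bars stand at 40.3% and 21.2%, the highest of the 12 hours for both.

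Tests for other courses gave no member past the threshold. A curvature term was called for 4 of 11586 probe sets (0.0345%) and 0 members, with 4 members at an unadjusted limma p under 0.05. These were Obp99b, Obp99d, Obp56e and Obp83b, while 5.53% of all probe sets were under that p. Between hours 1 to 4 and hours 5 to 8, 219 probe sets were called (1.89%) and 0 members, with 5 members at an unadjusted limma p under 0.05 (16.7% of all probe sets). Between hours 5 to 8 and hours 9 to 12, limma called 0 probe sets (0%) and 0 members, with 6 members and 6.65% of all probe sets at an unadjusted p under 0.05. With eBayes using an intensity trend and robust variances, the curvature and window fits again called 0 members.

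Other genes of chemosensation were followed as a list of 21, of which 17 were on the array and 11 were tested. Of these 1 rose, 1 fell and 9 did not pass, where 8.44% of all tested probe sets passed as higher and 4.97% as lower. The median fitted change was 0.04, compared with 0.01 for all tested probe sets. Os-C, which encodes a small secreted protein of the antenna, started at 136.5, was lowest at hour 10 with 79.6, ended at 104.8 and fell by 0.58 ± 0.14 on the log2 scale (limma adjusted p = 0.0132). Phk-3, a small secreted protein of the chemosensory protein family, started at 93.9, was highest at hour 9 with 161.7, ended at 122.8 and rose by 0.48 ± 0.14 (limma adjusted p = 0.0337). The pheromone-binding protein gene lush and the membrane protein gene Snmp2 were above the floor on 0 arrays, and Snmp1, needed for pheromone detection, ranged around a mean of 125.8 without passing (limma adjusted p = 0.618). Of the soluble carriers EbpIII, Npc2a and Npc2b, none of the 3 passed.

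When the actin 3′ to 5′ difference was added as covariate, after seeing the data, none of the members passed by limma (0 of 106), and over all probe sets 228 passed in place of 1554. The fitted change was then 0.61 ± 0.26 for Obp99c, 0.29 ± 0.28 for Obp44a, 0.37 ± 0.16 for Obp99a and -1.01 ± 0.34 for Obp56g. The change of Obp44a was thus smaller by more than 1.5 times, and those of the other 3 were larger. Because the actin difference follows the hours, its part and that of hour cannot be told apart.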

How the data were processed

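The arrays measured RNA extracted from whole flies with Trizol, per the labels. Each deposited value is a linear intensity that the authors normalized in dChip against an invariant set of probes, per the labels. The sources used here give no version, background model or masking. The table holds 14010 probe sets, 44 of them controls. No further normalization was applied. Values under the 20th percentile (57.2) were set to it and log2 was taken from there. Fly probe sets above it on at least 3 arrays (11586) entered limma 3.58.1 in R 4.3.3, with lmFit and eBayes, Benjamini-Hochberg adjustment and a threshold of 0.05. Trends are fitted log2 changes over the 11 hours from hour 1 to 12. Further fits were a quadratic term and 3 windows of 4 hours. Symbols came from the platform annotation, and 159 of 159 were found in a RefSeq gene table (assembly Release 6 plus ISO1 MT), used for names and neighbours only. Arrays give no read depth. The procedure was tested on simulated data.

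Members, lists and tests were chosen with earlier results of these data known. Named were members past the threshold, the 8 with the highest mean, the 5 next by p, and Obp, Or, Gr and Ir genes of known role, where on the array; other genes are said to be chosen after their values were seen. Alternatives covered normalization, floor, filter, variance model, time scale, each hour left out, male transcripts and probe set choice; the actin covariate was added after seeing the data.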

Additional observations from a re-analysis of the deposited data

How the results depend on the processing

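With each hour left out in turn, members that rose numbered 0 to 2, members that fell 0 to 2, Obp genes past the threshold 0 to 4 and all probe sets 943 to 2002. The fits that left out 1 hour had fewer arrays, and other causes were not tested. Other settings moved the counts of members too. With no filter on dim probe sets 0 rose and 0 fell, so that 0 Obp genes passed, and the same counts of 0 came with the actin covariate, where 228 probe sets passed in all. With log2 of hour 0 fell and with quantile normalization 1 rose and 2 fell. With the male accessory gland covariate 2 fell and 1 receptor gene passed. Without the arrays that held Acp95EF 1 rose, 2 fell, 1 Obp gene and 2 receptor genes passed, and 848 probe sets passed in all. Obp99a also lost its call with robust variances (limma adjusted p = 0.0537), median scaling (0.0510), log2 of hour (0.0544) and quantile normalization (0.0650), Obp56g with log2 of hour (0.0514) and Obp44a with quantile normalization (0.0948). The 4 called genes kept their sign in all 24 alternatives. Obp99b passed with log2 of hour (0.0400) and Obp18a with quantile normalization (0.0323) or the gland covariate (0.0439). Some changes that had not passed turned sign, again without passing. Obp56d was -0.13 with the actin covariate, -0.064 with log2 of hour, -0.019 with the gland covariate and -0.084 with quantile normalization. Or59b was 0.022 with log2 of hour and 0.016 with the gland covariate, and Gr68a 0.0093 and 0.037 in these and 0.00014 with log2(value + 16). Without the Acp95EF arrays Obp19d was 0.024 and Obp99d -0.011, and with the actin covariate Obp99d was -0.12. With 1 hour left out, Obp56d ranged from -0.086 to 0.139, Or59b from -0.083 to 0.087, Gr68a from -0.099 to 0.10 and Orco from -0.0023 to 0.153. No paired analysis was possible because the arrays form a single group. Most receptors lay below the brightest negative control, which limits what these arrays can show of them.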
